A study of Mus musculus with 2 samples.

Results

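Ccl1, a chemokine ligand, and Ccr8, its receptor, are 2 of the 31053 genes counted here in single cells of a mouse melanoma, B16-F10, grown under the skin. The pair was chosen by a value measured in these same libraries, the lower Ccl1 level in CD8 T cells of the treated library, so the Ccl1 levels of CD8 T cells are given as a description. The tumours grew in ten-week female C57BL/6 wild-type mice. There was 1 library from mice given an OX40 agonist and 1 from control mice, each made from sorted live CD45+ cells with 10x Genomics 3′ chemistry, and the sources used here do not give the number of mice in each. With 1 library a group no test between treatments was possible, and treatment and library cannot be told apart. All intervals are 95% intervals that cover counting error only.

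CCL1 is secreted mainly by activated T cells and signals through CCR8, a G protein-coupled receptor. In mice CCL8, made largely by macrophages, is a further agonist of CCR8. CCR8 is known from regulatory T cells that infiltrate tumours and from type 2 helper T cells. OX40 (Tnfrsf4), bound by the agonist, is a costimulatory receptor of the tumour necrosis factor receptor family on activated T cells.

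In GENCODE M21 (GRCm38, the same build as mm10) Ccl1 (ENSMUSG00000020702) spans chr11:82176657-82305690 on the minus strand. Of its annotated transcripts, 2 have 3 exons and start at base 82179812, and the remaining one, with 11 exons, reaches upstream to base 82305690. All of them end within the same few bases, where 3′ reads fall, so the counts do not separate them. Ccl8 lies 59857 bases from Ccl1 on the same chromosome. Ccr8 (ENSMUSG00000042262) spans chr9:120092114-120094906 on the plus strand and has 2 exons. No other annotated gene overlaps Ccl1 or Ccr8.

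The start-site windows of both genes are printed because the results below contrast a ligand that sits high in a few CD8 T cells with a sparse receptor. Each covers 250 bases before and 50 after the RefSeq start (GRCm38.p6), 5′ to 3′ on the gene's strand, chr11:82179763-82180062 (minus) for Ccl1 and chr9:120091883-120092182 (plus) for Ccr8. Capitals mark matches to GGAAA, the core recognised by NFAT factors, on either strand.
Ccl1: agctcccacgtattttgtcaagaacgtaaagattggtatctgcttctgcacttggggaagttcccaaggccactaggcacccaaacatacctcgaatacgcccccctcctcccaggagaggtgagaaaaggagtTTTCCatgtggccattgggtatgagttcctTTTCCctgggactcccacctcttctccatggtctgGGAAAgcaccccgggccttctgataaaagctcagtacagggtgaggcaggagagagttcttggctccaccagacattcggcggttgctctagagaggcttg
Ccr8: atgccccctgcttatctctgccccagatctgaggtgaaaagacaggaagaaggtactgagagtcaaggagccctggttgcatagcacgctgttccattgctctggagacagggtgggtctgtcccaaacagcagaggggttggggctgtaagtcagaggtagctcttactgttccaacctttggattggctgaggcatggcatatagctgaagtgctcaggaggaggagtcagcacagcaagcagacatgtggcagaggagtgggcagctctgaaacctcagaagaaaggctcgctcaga
The Ccl1 window held 3 GGAAA matches, with first bases at -116, -86 and -51 from the start, and the Ccr8 window held none. Of 32851 mouse windows of this length, 61.34% held at least 1 match and 9.415% at least 3. Neither window held the AP-1 motif TGANTCA, found in 7.808% of windows, or TATAAA, found in 13.62%. These are matches of letters and were not tested as binding sites.

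The OX40 agonist library held 8569 barcodes with a median of 7309 UMIs (unique molecular identifiers, 1 per captured RNA molecule), of which 7050 were kept, and the control library held 7187 with a median of 8927, of which 6031 were kept. The libraries shared 12 of the kept cell barcodes. Cells were gated on marker genes that never included Ccl1 or Ccr8. On genes that the gates did not use, Il2ra reached 203 CPM in regulatory T cells and 38.9 in CD8 T cells after OX40 agonist, and 197 and 52.6 in control. Other such genes did not separate the gates cleanly. Whether this came from cells in the wrong gate, free RNA or expression by the cells themselves was not tested. Ikzf2, known from regulatory T cells, reached 648 CPM in conventional CD4 T cells after OX40 agonist and 590 in control, beside 1119 in regulatory T cells after OX40 agonist and 1144 in control. The cytotoxic gene Nkg7 reached 1551 CPM in regulatory T cells after OX40 agonist and 1371 in control, beside 2937 in CD8 T cells after OX40 agonist and 3013 in control. Despite the CD45 sort, 8.45% of kept cells after OX40 agonist and 6.81% in control were melanoma cells.

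Ccl1 came mainly from CD8 T cells in both libraries. CD8 T cells were 16.8% of kept cells after OX40 agonist and 25.2% in control, and held 79.7% of the 3134 Ccl1 UMIs after OX40 agonist and 79.4% of the 8935 in control. Their level was 173 CPM (counts per total UMIs of the gate, scaled alike in both libraries; interval 167 to 180) after OX40 agonist and 308 (301 to 316) in control, a ratio of 0.562 (0.537 to 0.589). A Ccl1 UMI was found in 231 of 1182 CD8 T cells (19.5%) after OX40 agonist and in 408 of 1522 (26.8%) in control, at median depths of 10048.5 UMIs after OX40 agonist and 12468.5 in control. With every cell thinned to 1000 UMIs, 79 cells (6.68%, 5.33 to 8.26) after OX40 agonist and 151 (9.92%, 8.46 to 11.5) in control had one. The treated library was thus lower both in level and in the share of cells, at equal depth too. Mononuclear phagocytes, the most numerous type, gave thinned shares of 0.139% after OX40 agonist and 0.258% in control, at median depths before thinning of 7810 UMIs after OX40 agonist and 9039 in control, and these shares are taken as background.

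Among the 6965 genes of CD8 T cells at 10 CPM or more in either library, Ccl1 was 1 of 8 (0.115%) at least 1.5-fold lower after OX40 agonist, on a log2 scale with 10 CPM added to each side. The choice of Ccl1 used this contrast, so the count is given beside the background only. The other 7 were Spp1, Penk, Areg, Slc17a6, the receptor segment Trav16 and the unnamed loci Gm42418 and Gm42047. The 2 genes (0.0287%) higher by that fold were Plac8 and Gzma. Of 11 measured T cell cytokine and chemokine genes other than Ccl1, 2 passed the fold, both lower. Spp1, which encodes osteopontin, had 117 CPM after OX40 agonist and 321 in control, and Penk, the precursor of enkephalin peptides, had 70.7 CPM after OX40 agonist and 183 in control. The log2 ratio of Xcl1 was -0.17 and that of Ifng -0.07.

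**Figure D1:**
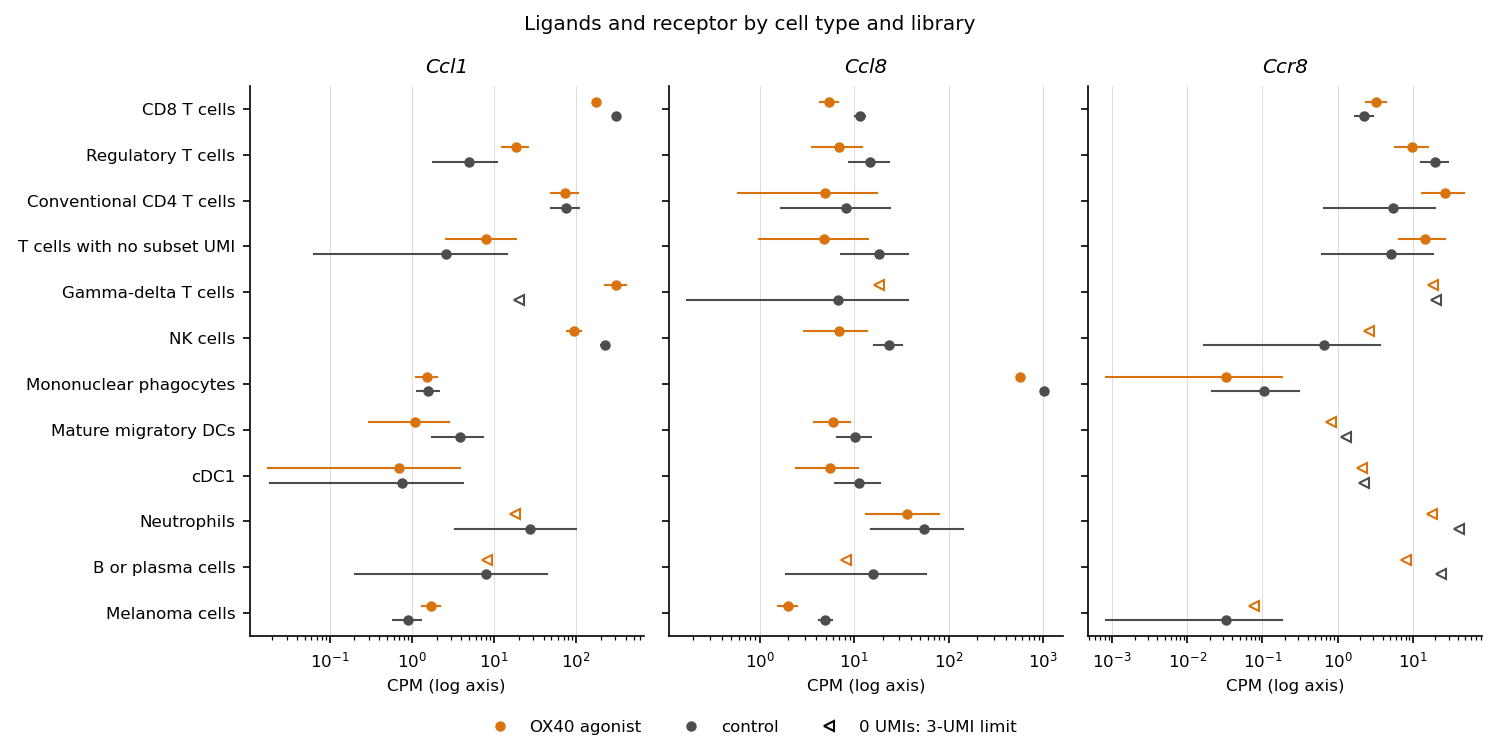
Levels of Ccl1, Ccl8 and Ccr8 as CPM on log axes, by gated cell type, with the OX40 agonist library above the control library. Points are summed UMIs with exact Poisson intervals, and open triangles mark the limit that 0 UMIs allows. Ccl1 was high in CD8 T cells, Ccl8 in mononuclear phagocytes (562 after OX40 agonist and 1031 in control), and no Ccr8 point with a UMI lay above 26.9, although intervals and limits of small gates reach higher. The NK points of Ccl1, and the treated gamma-delta point, rest almost wholly on 1 cell each.

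Within CD8 T cells Ccl1 was concentrated in few cells. After OX40 agonist 55 cells (4.65%, 3.52 to 6.01) held 10 UMIs or more and carried 82.5% of the gene's CD8 UMIs, and in control 129 cells (8.48%, 7.12 to 9.99) carried 89.0%. Only 19 cells after OX40 agonist and 23 in control held 50% of the UMIs. The highest cells had 197, 108 and 106 UMIs after OX40 agonist and 396, 348 and 324 in control, while the median cell with any Ccl1 had 2 UMIs after OX40 agonist and 3.5 in control. Poisson intervals on summed UMIs are therefore too narrow for Ccl1, since UMIs of 1 cell are not independent. The treated library was lower without the highest cells too, as the log2 ratio was -0.80 with all cells and -0.74 without the 1% of cells with most Ccl1.

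**Figure D2:**
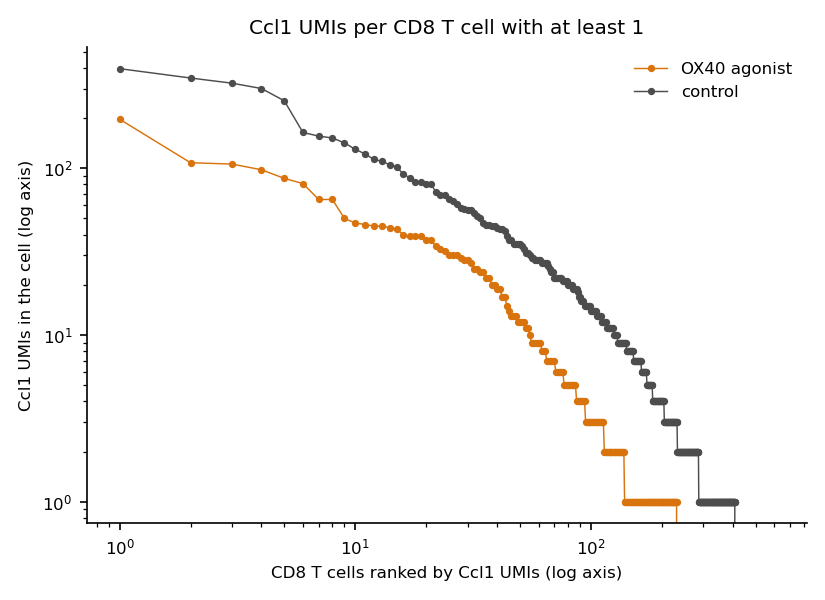
Ccl1 UMIs in each CD8 T cell that had at least 1, ranked from highest to lowest on log axes, for the OX40 agonist and control libraries. The treated curve runs below the control curve along its whole length, starting at 197 against 396 UMIs.

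The treated library was lower in CD8 T cells below the cutoff for granzymes D to G, a group of cytotoxic proteases, in cycling and noncycling cells alike. Such cells are called without these granzymes, although they could hold some of their UMIs. In noncycling cells without these granzymes, Ccl1 reached 239 CPM after OX40 agonist and 485 in control, a ratio of 0.493 (0.465 to 0.522). In cycling cells without them it reached 112 CPM after OX40 agonist and 209 in control, a ratio of 0.535 (0.490 to 0.583). Cells that carried granzymes D to G were fewer. Among noncycling ones, 46 cells after OX40 agonist had 147 CPM and 117 in control had 191, a ratio of 0.769 (0.622 to 0.945). Among cycling ones, 28 cells after OX40 agonist had 109 and 56 in control had 106, a ratio of 1.03 (0.764 to 1.37). At 1000 UMIs a cell, the shares with Ccl1 in noncycling cells without these granzymes were 7.27% (5.54 to 9.34) after OX40 agonist and 10.6% (8.62 to 12.8) in control, and in cycling ones 5.62% (3.42 to 8.64) after OX40 agonist and 10.6% (8.01 to 13.7) in control, with overlapping intervals. In cells with them, the shares of both libraries lay between 4.27% and 7.14%, each from 5 or fewer positive cells. Whether the ratio differs between these groups was not tested.

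**Figure D3:**
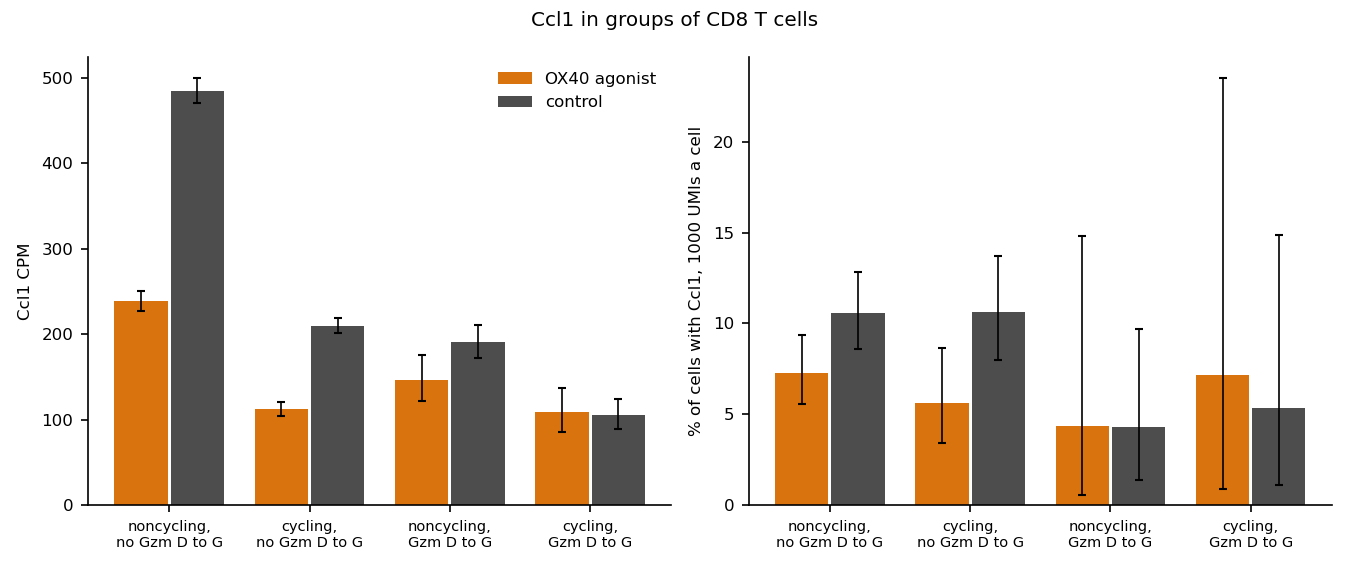
Ccl1 in 4 groups of CD8 T cells split by cell cycle genes and granzymes D to G. The left panel shows summed UMIs as CPM with exact Poisson intervals and the right panel the share of cells with Ccl1 after thinning to 1000 UMIs, with exact binomial intervals. The noncycling cells without granzymes D to G show 239 after OX40 agonist beside 485 in control.

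In NK and gamma-delta T cells nearly all Ccl1 UMIs lay in 1 cell. Of 109 Ccl1 UMIs in NK cells after OX40 agonist, 106 lay in 1 cell, and of 341 in control, 332 lay in 1 cell. Both cells carried NK genes, with 16 UMIs of the NK receptor gene Ncr1 in the OX40 agonist cell and 5 in the control cell, and 0 of the T cell gene Cd3e in each. Each also held much of the chemokine Xcl1, with 153 UMIs in the OX40 agonist cell and 333 in the control cell. All 49 Ccl1 UMIs of gamma-delta T cells after OX40 agonist lay in 1 of 28 cells, which had 136 Xcl1 UMIs, and the 29 control cells had none, which allows up to 20.2 CPM. Conventional CD4 T cells held 30 UMIs in 5 of 78 cells after OX40 agonist and 27 in 6 of 48 cells in control, at levels of 73.4 CPM after OX40 agonist and 74.1 in control. Regulatory T cells held 32 UMIs in 9 of 268 cells after OX40 agonist and 6 in 5 of 158 cells in control. Their shares of positive cells, 3.36% (1.55 to 6.28) after OX40 agonist and 3.16% (1.03 to 7.23) in control, had overlapping intervals, and the highest treated cell alone held 13 UMIs.

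Droplets with RNA of both T cells and phagocytes were kept apart, and they also differed between libraries. They held 65 Ccl1 UMIs among 184 droplets after OX40 agonist and 1101 among 216 in control, which is 2.07% of the library's Ccl1 after OX40 agonist and 12.3% in control. In melanoma cells 52 of the 68 UMIs after OX40 agonist lay in 1 cell that also held 9 Cd3e and 10 Cd8a UMIs, and control had 27 UMIs.

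Over all kept cells, Ccl1 stood at 30.8 CPM after OX40 agonist and 88.4 in control, a ratio of 0.348 (0.334 to 0.362). The larger gap here than within CD8 T cells goes with the smaller share of CD8 T cells. These cells held 79.7% of the Ccl1 UMIs after OX40 agonist and 79.4% in control, so all other cells together kept a like share. Droplets with T cell and phagocyte RNA were lower too, and the parts were not tested.

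CD8 T cells that held Ccl1 also carried more RNA of other secreted factors. Cells were split by a Ccl1 UMI after thinning, 79 with and 1103 without after OX40 agonist, and 151 with and 1371 without in control, and their levels were compared from all UMIs within each library. Of 12 T cell cytokine and chemokine genes measured after OX40 agonist, 8 were at least 1.5-fold higher with Ccl1, and of 13 in control, 9 were, with none lower by that fold in either. Over all genes, 2.05% were higher by that fold and 2.05% lower after OX40 agonist, and 1.52% higher and 0.677% lower in control. The list's median log2 ratio was 0.95 after OX40 agonist and 1.20 in control, beside medians over all genes of -0.01 after OX40 agonist and -0.02 in control.

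Xcl1, which attracts XCR1+ dendritic cells, had the largest difference of the list, with log2 ratios of 2.59 after OX40 agonist and 3.07 in control. After OX40 agonist it stood at 1520 CPM with Ccl1 and 245 without, and in control at 1897 with and 217 without. At 1000 UMIs a cell, 40.5% (29.6 to 52.1) of cells with Ccl1 and 10.5% (8.8 to 12.5) of those without had Xcl1 after OX40 agonist, and in control 36.4% (28.8 to 44.6) with and 8.0% (6.6 to 9.6) without. Ccl3, an inflammatory chemokine, was found in 54.4% of cells with Ccl1 and 23.7% without after OX40 agonist, and in 55.0% and 22.4% in control. Ifng, the gene of interferon gamma, was found in 46.8% and 25.8% after OX40 agonist and in 41.7% and 26.6% in control. The log2 ratios of Penk were 1.55 after OX40 agonist and 1.59 in control, and those of the chemokine Ccl9 1.83 after OX40 agonist and 1.33 in control. Not all secreted factors followed. Ccl5, the most abundant of the list, had log2 ratios of -0.39 after OX40 agonist and -0.04 in control, and Tnf 0.08 after OX40 agonist and -0.06 in control.

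Among 7 measured genes of inhibitory receptors and Tox, 2 were higher by 1.5-fold in each library, Cd160 (1.12 after OX40 agonist and 1.12 in control) and Lag3 (0.72 after OX40 agonist and 0.65 in control). Pdcd1, the gene of PD-1, had -0.18 after OX40 agonist and -0.24 in control. Ccr7, a receptor for lymph node chemokines, was higher with Ccl1, at 1.28 after OX40 agonist and 1.12 in control. Of 12 measured genes induced by T cell receptor signals, 2 were higher with Ccl1 by 1.5-fold and 0 lower after OX40 agonist. In control 3 were higher and 1 lower, and the medians were 0.42 after OX40 agonist and 0.25 in control. One of that list, Tnfrsf4, the target of the agonist, was found in 49.4% of cells with Ccl1 and 26.8% without after OX40 agonist, and in 34.4% and 24.3% in control. Of 10 cell cycle genes, 2 were lower with Ccl1 by 1.5-fold after OX40 agonist and 0 in control, with medians of -0.33 after OX40 agonist and -0.22 in control. At 1000 UMIs a cell, the share of cells with a UMI was higher with Ccl1 for 3 of the 10 after OX40 agonist and for 6 in control, so the shares gave no common direction. Cells with Ccl1 were deeper, with median depths of 12381 and 9715 UMIs with and without after OX40 agonist, and 13823 and 12379 in control.

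The granzyme and perforin genes gave no stable direction. With cells split at 1000 UMIs their median log2 ratio was -1.37 after OX40 agonist and -0.80 in control, led by Gzmg (-3.48 after OX40 agonist and -3.74 in control) and Gzmd (-3.23 after OX40 agonist and -2.89 in control). With cells split at 3000 UMIs it was 0.16 after OX40 agonist and 0.54 in control. Gzmb, the most abundant, was found in 54.4% of cells with Ccl1 and 53.9% without after OX40 agonist, and in 61.6% and 61.8% in control.

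**Figure D4:**
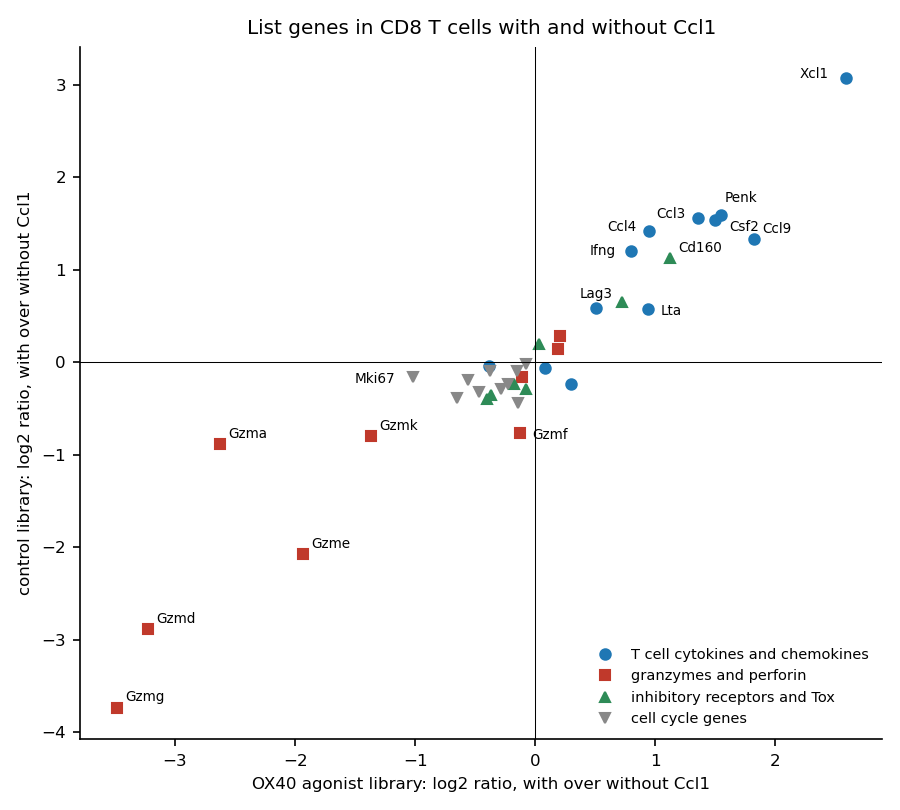
Log2 ratio of CD8 T cells with over those without Ccl1, for the OX40 agonist library (x axis) and the control library (y axis), 1 point a gene of 4 lists. Xcl1 stands at the upper right (2.59 and 3.07), cell cycle genes lie slightly below 0 in these levels, without a common direction in shares at equal depth, and Gzmd, Gzme and Gzmg lie at the lower left, although the granzyme median turned to 0.16 after OX40 agonist and 0.54 in control when cells were split at 3000 UMIs.

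Across thinned CD8 T cells (1182 after OX40 agonist and 1522 in control, 2227 genes), the genes whose log level followed Ccl1 most closely were Xcl1, Nrgn and Ccl3, ranked by the lower Pearson r of the 2 libraries. Xcl1 had r of 0.29 after OX40 agonist and 0.38 in control, Nrgn, which encodes a calmodulin-binding protein, 0.29 after OX40 agonist and 0.24 in control, and Ccl3 0.23 after OX40 agonist and 0.27 in control. The next 7, Vamp8, Ccr7, Ccl4, Ifng, Junb, Lag3 and Pglyrp1, had a lower r between 0.10 and 0.16, which is weak in counts this sparse. Of the 10, 7 were again among the first 10 at 3000 UMIs a cell, and 6 were without cycling cells, and 6 in another random draw. Cells of 1 library share their mice and their preparation.

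Ccr8, the receptor, was sparse, with 103 UMIs among kept cells after OX40 agonist and 105 in control. It was found mainly in T cells, and mostly as 1 UMI a cell. Its level over all kept cells was 1.01 CPM after OX40 agonist and 1.04 in control, a ratio of 0.973 (0.734 to 1.29). Mononuclear phagocytes, with far more cells, held 1 of the UMIs after OX40 agonist and 3 in control, and dendritic cells, neutrophils and B cells held none in either library. In 2902 phagocytes after OX40 agonist the share with Ccr8 was 0.0345% and in 2347 in control 0.128%, lower than the shares of regulatory and CD8 T cells given below. Free RNA was not measured, and its part was not tested.

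Regulatory T cells, gated on Foxp3, had 9.83 CPM (5.73 to 15.7) after OX40 agonist and 19.9 (12.7 to 29.6) in control, from 17 UMIs after OX40 agonist and 24 in control. The receptor was found in 16 of 268 of them (5.97%, 3.45 to 9.51) after OX40 agonist and in 24 of 158 (15.2%, 9.98 to 21.8) in control, a level ratio of 0.495 (0.249 to 0.960). Of 7452 genes in these cells, 1.8% were lower after OX40 agonist by 1.5-fold with the same offset, and Ccr8 was just past that fold at a log2 ratio of -0.59. It no longer passed with gate minimums 2 times as high (-0.44) or as a mean over cells (-0.50).

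In conventional CD4 T cells Ccr8 pointed the other way. There were 11 UMIs in 10 of 78 cells after OX40 agonist, a level of 26.9 CPM (13.4 to 48.1), and 2 in 2 of 48 cells in control, a level of 5.49 (0.665 to 19.8). The ratio was 4.90 with an interval of 1.07 to 45.5. In this gate 11.3% of all genes were higher by 1.5-fold on the log2 scale with 10 CPM added, where Ccr8 stood at 1.25. The share of genes as far apart as Ccr8 was not counted. The gate called T cells with no subset UMI held the T cells that no other T cell gate took. They had no Foxp3 or Cd4 UMI, but could hold CD8 or gamma-delta UMIs below the minimums of those gates. This gate had 9 Ccr8 UMIs, a level of 14.3 CPM (6.55 to 27.2), after OX40 agonist and 2, a level of 5.18 (0.628 to 18.7), in control. Some genes known from regulatory T cells also stood higher in these gates of the treated library, but others stood lower. Of 19 activated regulatory T cell genes measured in conventional CD4 T cells, 12 were higher and 7 lower after OX40 agonist. By 1.5-fold 3 were higher and 3 lower, beside 11.3% and 15.9% of all genes, and their median log2 ratio was 0.13. In conventional CD4 T cells Ctla4 stood at 1360 CPM after OX40 agonist and 988 in control, and Tnfrsf4 at 1504 after OX40 agonist and 1026 in control. Il2ra stood there at 95.4 CPM after OX40 agonist and 90.6 in control. In T cells with no subset UMI Tnfrsf4 stood at 1014 CPM after OX40 agonist and 591 in control, while Ikzf2 stood at 715 after OX40 agonist and 829 in control. Their part in the result was not tested.

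The border between these gates is 1 UMI of Foxp3 or Cd4, and all of them could hold cells with CD8 UMIs below the CD8 minimum. After OX40 agonist 113 of the 268 regulatory T cells had just 1 Foxp3 UMI, and in control 46 of 158. With these 3 gates joined, Ccr8 stood at 13.4 CPM (9.42 to 18.4) in 485 cells after OX40 agonist and at 14.3 (9.50 to 20.7) in 296 control cells, a ratio of 0.935 (0.557 to 1.59). The receptor was found in 35 of these cells (7.22%, 5.08 to 9.89) after OX40 agonist and in 28 (9.46%, 6.38 to 13.4) in control. A difference between libraries in these T cells as a whole was not detectable at this depth.

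CD8 T cells had a lower level of Ccr8 but, by their number, held 45.6% of its UMIs after OX40 agonist and 49.5% in control. The level was 3.26 CPM (2.40 to 4.34) after OX40 agonist and 2.26 (1.69 to 2.96) in control, a ratio of 1.44 (0.952 to 2.18). It was found in 41 of 1182 cells (3.47%) after OX40 agonist and 49 of 1522 (3.22%) in control. CD8 T cells lay below regulatory T cells in both libraries without overlap of the intervals. The intervals of conventional CD4 T cells, regulatory T cells and T cells with no subset UMI overlapped in each library. After OX40 agonist all of them lay above that of CD8 T cells, and in control that of regulatory T cells did. NK cells held 0 UMIs after OX40 agonist, which allows 2.58 CPM, and 1 in control.

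CD8 T cells with the receptor also held the ligand more often than those without it. Of cells with Ccr8, 15 of 41 (36.6%, 22.1 to 53.1) after OX40 agonist and 29 of 49 (59.2%, 44.2 to 73.0) in control also had Ccl1. Of cells without Ccr8, 18.9% (16.7 to 21.3) after OX40 agonist and 25.7% (23.5 to 28.0) in control had Ccl1. Cells with Ccr8 were deeper, with median depths of 12870 against 9976 UMIs without it after OX40 agonist, and 13559 against 12458 in control, and the part of depth was not tested. The direction was the same in noncycling cells without granzymes D to G, with shares of 39.1% with and 17.3% without Ccr8 after OX40 agonist, and 54.8% and 20.5% in control. In cycling cells without them the shares were 31.3% and 18.9% after OX40 agonist, and in control 10 of 14 cells (71.4%) with Ccr8 and 149 of 466 without it. In regulatory T cells 1 of 16 cells with Ccr8 after OX40 agonist and 2 of 24 in control had Ccl1, too few to compare.

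**Figure D5:**
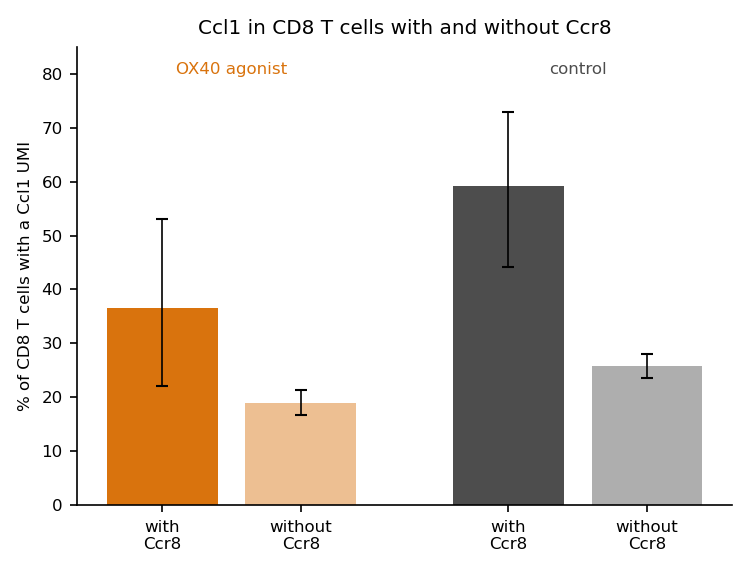
Share of CD8 T cells with a Ccl1 UMI among cells with and without a Ccr8 UMI, for the OX40 agonist and control libraries, with exact binomial intervals. The share is 36.6% against 18.9% after OX40 agonist and 59.2% against 25.7% in control.

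Genes that go with Ccr8 outside CD8 T cells were sought in regulatory T cells, conventional CD4 T cells and T cells with no subset UMI, joined. From UMIs as deposited, 35 cells with a Ccr8 UMI were set against 450 without one after OX40 agonist, and 28 against 268 in control. The mix of gates differed between these sides. Regulatory T cells were 16 of the 35 and 252 of the 450 after OX40 agonist, and 24 of the 28 and 134 of the 268 in control. The part of this mix in the values below was not tested. With groups of this size 9.66% of all genes were higher by 1.5-fold and 11.5% lower after OX40 agonist, and 10.4% higher and 12.3% lower in control. Of 10 cell cycle genes, 5 were higher by that fold after OX40 agonist and 6 in control, with none lower by it and medians of 0.56 after OX40 agonist and 0.83 in control. The mitotic genes Ccnb2 and Top2a had log2 ratios of 1.21 and 0.85 after OX40 agonist, and 1.46 and 1.12 in control. Median depths were 4125 UMIs with and 4042 without Ccr8 after OX40 agonist, and 6505.5 and 4638.5 in control.

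Of 10 genes induced by tissue dissociation, 5 were lower by 1.5-fold with Ccr8 after OX40 agonist and 6 in control, where 1, Atf3, was higher. The heat shock gene Hspa1a had 16.5 CPM with Ccr8 and 157 without after OX40 agonist, and 3.60 and 86.9 in control. Of 12 T cell cytokine and chemokine genes measured in each library, 2 were higher and 3 lower with Ccr8 by that fold after OX40 agonist, and 4 higher and 5 lower in control, with medians of -0.28 after OX40 agonist and -0.26 in control. Ccl4, named after its values were seen, was higher with Ccr8, at 952 and 229 CPM after OX40 agonist and 486 and 177 in control. Of 8 measured granzyme and perforin genes, 7 were lower with Ccr8 by that fold after OX40 agonist, and of 5 in control, 3 were. None was higher by it, and the medians were -2.31 after OX40 agonist and -1.27 in control. Of 8 naive and memory T cell genes, 4 were lower and 1 higher by that fold in each library. Of 19 activated regulatory T cell genes measured after OX40 agonist and 21 in control, 0 were higher by that fold and 2 lower after OX40 agonist, and 4 higher and 1 lower in control, with medians of 0.14 after OX40 agonist and 0.18 in control. Il2ra, the receptor subunit for interleukin-2, had log2 ratios of 0.05 after OX40 agonist and 1.39 in control, and Tnfrsf4 0.44 after OX40 agonist and 0.75 in control. The share of regulatory T cells among cells with Ccr8 differed between the libraries, as given above.

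Ccl8, the ligand made by phagocytes, also stood lower in the treated library. Mononuclear phagocytes held 87.8% of its UMIs after OX40 agonist and 77.7% in control. Their level was 562 CPM (553 to 570) after OX40 agonist and 1031 (1019 to 1043) in control, a ratio of 0.545 (0.535 to 0.555). These intervals are too narrow, as for Ccl1. The highest phagocyte held 577 Ccl8 UMIs after OX40 agonist and 924 in control, beside medians of 6 and 9 in phagocytes with any. At 1000 UMIs a cell, 317 of 2880 phagocytes (9.89% to 12.2%) after OX40 agonist and 405 of 2324 (15.9% to 19.0%) in control had Ccl8. Of 4 measured chemokine genes near Ccl1 on chromosome 11, Ccl8 was the one lower by 1.5-fold, where 0.74% of 7031 genes were. Ccl2, Ccl7 and Ccl12, its neighbours, had log2 ratios of -0.07, -0.07 and -0.12.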

How the data were processed

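Each library was measured once. The deposited matrices hold UMI counts per gene and barcode, made with Cell Ranger on mm10 per the submitters' processing notes, by software version 3.1.0 per the file headers. No other upstream step is given in the sources used here. The counts were deposited without normalization and summed to 118059108 UMIs in the OX40 agonist library and 114026695 in the control library.

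Barcodes below 500 UMIs or 200 genes, or above 10% mitochondrial UMIs, were dropped, and the highest Scrublet scores (scanpy 1.11.5) were removed at 0.8% per 1000 barcodes, 450 of 7500 after OX40 agonist and 323 of 6354 in control. The automatic threshold marked 0.0256% of barcodes after OX40 agonist and 0% in control and was not used. T cells needed at least 3 UMIs of Cd3d, Cd3e, Cd3g and Trac, and at least 10 per 10k UMIs of the cell. CD8 T cells also needed at least 2 UMIs of Cd8a and Cd8b1, and at least 2 per 10k. Regulatory T cells needed 1 of Foxp3. Gamma-delta T cells needed at least 2 UMIs of Trdc, Tcrg-C1, Trdv4 and Trgv2, and conventional CD4 T cells 1 of Cd4. T cells left by these gates are called T cells with no subset UMI, although they could hold CD8 or gamma-delta UMIs below the minimums. T cells with 10 or more phagocyte marker UMIs per 10k were set apart as mixed droplets. CD8 T cells counted as carrying granzymes D to G at 3 or more UMIs of these genes and 10 or more per 10k. They counted as cycling at 3 or more UMIs of Mki67, Top2a, Birc5, Ccnb2 and Cdk1 and 5 or more per 10k. Gate minimums were set on the panels after their distributions were seen. Levels are summed UMIs as CPM, with exact Poisson, Clopper-Pearson and conditional ratio intervals (scipy 1.17.1). Log2 ratios add 10 CPM to each side. The calculations were tested on simulated data. The members and lists were chosen with earlier results of these data known. Named list genes were those at 10 CPM or more with the largest log2 ratios. Exceptions chosen after their values were seen are Ccl3, Ccl5, Xcl1 between libraries, Tnf, Pdcd1, Gzmb, Ifng, Tnfrsf4, Il2ra, Ctla4 and Ikzf2. Planned Ccr8 likeness in regulatory T cells rested on 2 and 1 thinned positive cells, so no gene is named from it.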

Additional observations from a re-analysis of the deposited data

Results flagged for a closer look

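The Ccl1 ratios of different cell types lay on both sides of 1. The ratio of OX40 agonist to control was 0.562 in CD8 T cells and 0.415 in NK cells, but 3.73 in regulatory T cells and 1.95 in melanoma cells. The difference between cell types was not tested. In NK cells and in treated melanoma cells most of the UMIs lay in 1 cell, and in treated regulatory T cells the highest cell held 13 of 32. Without the highest cell of each library, the ratio was 0.539 (0.266 to 1.07) in melanoma cells, which turns its direction, 0.441 (0.0768 to 1.77) in NK cells, 3.33 (1.11 to 13.5) in regulatory T cells and 0.549 in CD8 T cells.

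Ccr8 had a ratio of 0.495 in regulatory T cells and 4.90 in conventional CD4 T cells. The difference was not tested, and the control level of conventional CD4 T cells comes from 2 UMIs. The ratio of these gates joined with the gate called T cells with no subset UMI was 0.935.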

How the results depend on the processing

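No paired analysis was possible because there was 1 library a group. Of 57 alternative values, 35 lay within the interval of the main value, 18 lay outside it and 4 changed sign. For Ccl1 levels that interval is too narrow, as said above. For list medians it runs between the medians of the single genes' interval ends, which is not an interval of the median. The log2 ratio of Ccl1 in CD8 T cells stayed negative under every alternative run. It was -0.67 with gate minimums 2 times as high, -0.86 thinned to 1000 UMIs, -0.93 as a mean over cells and -0.87 with the mix of CD8 T cells held at that of control, against -0.80. The CD8 share of Ccl1 UMIs was 72.7% after OX40 agonist and 71.7% in control without removal by doublet score, 85.6% and 74.9% with the stricter gates, and 78.5% in control at 5% mitochondrial UMIs. Ccr8 in regulatory T cells turned to 0.10 when thinned to 1000 UMIs, from 2 and 1 UMIs. The thinned share of regulatory T cells with Ccr8, 0.749% after OX40 agonist and 0.633% in control, was 4.05% and 10.1% at 3000 UMIs, and 7.22% and 9.46% for T cells outside the CD8 and gamma-delta gates without thinning. The median of cytokine and chemokine genes with Ccl1 was 1.34 after OX40 agonist and 1.49 in control without cycling cells, and 1.03 in control at 3000 UMIs. That of granzymes and perforin was 0.16 after OX40 agonist and 0.54 in control at 3000 UMIs, -0.19 and 0.78 without cycling cells, and -1.86 in control with at least 2 Ccl1 UMIs; the cause was not tested. Alternatives that left out the 1% of cells with most Ccl1 or the highest cell of a type, joined the gates, widened the T cells or redrew the thinning were chosen after seeing the data.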
